A study of Mus musculus with 9 samples.

Results

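The Hox cluster genes were taken as every protein-coding gene of the GRCm38 (mm10) annotation whose symbol is Hox, a cluster letter a to d and a number, and 38 such genes of 21900 protein-coding genes are described. Their N6-methyladenosine (m6A) was read from the peak lists of 2 immunoprecipitations of wild-type mouse embryonic stem cells (mESCs), labelled WT replicates 1 and 2. The series also holds 2 immunoprecipitations each from Mettl3KO and Zc3h13KO cells, which are knockout lines grown from picked clones, and 1 input for each of the 3 genotypes, and these 7 libraries were not analysed here. All groups carry the background that the labels give as Rosa26:CRE, Bir ligase, which the study describes as mESCs expressing the BirA ligase from the Rosa26 locus. In the m6A-RIP-seq of the study, oligo-dT-selected mRNA was bound by an antibody against m6A and cut on the beads with RNase T1. The captured fragments were sequenced, and a peak is a stretch of the genome where the pulled-down reads exceed the input. Fold enrichment is the authors' ratio of immunoprecipitation to input at a peak, and −log10 q grows with the confidence of the call. The lists held 22531 peaks in replicate 1 and 5040 in replicate 2, and read depth is unknown. The peak names in the list of replicate 1 carry a stem (m6a_H4) that does not name wild-type cells, whereas those of replicate 2 do, so the main counts are also given for each replicate alone. A peak list does not measure expression. Of 10 embryonic stem cell transcripts, 7 had a peak in replicate 1, against 41.3% of all protein-coding genes, among them Esrrb (up to 11.8-fold), Nanog (1.67-fold) and Sox2 (1.27-fold). In both replicates 1 had a peak, Tbx3, against 16.1%. All genotypes of the series are mESC lines, so this does not check the genotype of a list.

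Hox genes encode homeodomain transcription factors that give cells along the head-to-tail axis, and along the limbs, their positional identity. In mammals they lie in separate clusters that arose by duplication, so that genes with the same number in different clusters are paralogues, and all genes of a cluster are transcribed in one direction. The order of the genes along a cluster follows the order of their expression, from low numbers, which are used early and in anterior tissue, to high numbers, which are used late and in posterior tissue. In undifferentiated mESCs the clusters are known as targets of Polycomb repression, and retinoic acid is a classical inducer of the low-numbered genes. m6A marks mRNA and is known for promoting the turnover of many developmental transcripts in mESCs.

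Of the 38 Hox genes described, 17 (44.7%) had a peak within 500 bp of the gene body in replicate 1, against 41.3% of all protein-coding genes. In replicate 2, 2 of them (5.26%), Hoxc13 and Hoxd13, had one, against 16.9% of all protein-coding genes. Both also had a peak in replicate 1, so 5.26% of the Hox genes described had a peak in both replicates, against 16.1% of all protein-coding genes. Of the 17 with a replicate 1 peak, 2 (11.8%) also had one in replicate 2, against 39.1% of the 9038 protein-coding genes with a replicate 1 peak. These shares are descriptions and were not tested, since neighbouring Hox genes share peaks. None of the 38 had a peak in replicate 2 only, and 21 (55.3%) had no peak in either list. Their gene bodies had a median length of 3722 bp, against 17146 bp for all protein-coding genes, and the part of gene length in these shares was not tested. The median length was 3706 bp for the Hox genes with a replicate 1 peak and 3737 bp for those with none.

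**Figure D1:**
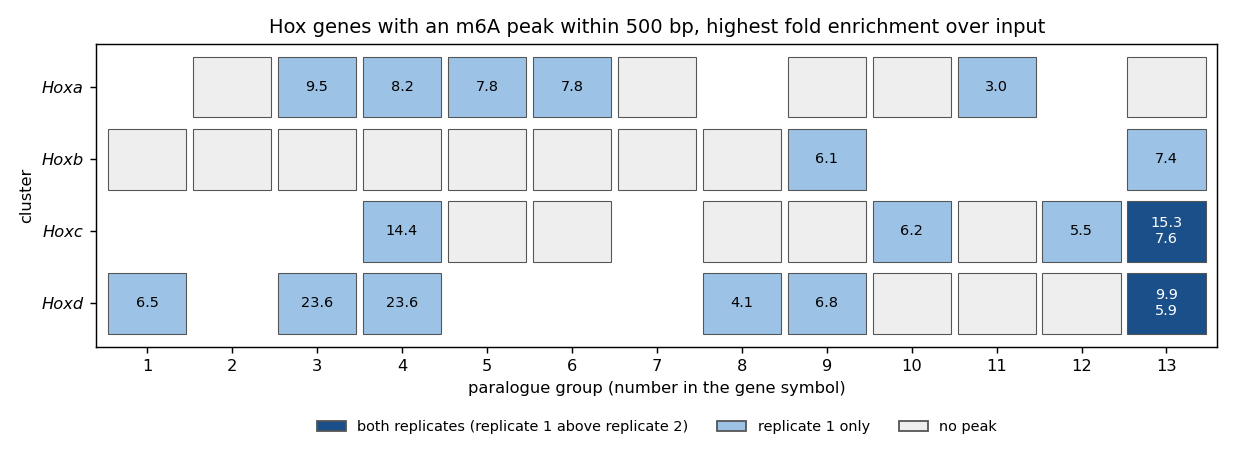
The 38 Hox genes described, by cluster (rows) and paralogue group (columns), coloured by the replicates with a peak within 500 bp. Positions without a box are not described. Numbers are the highest fold enrichment over input at the gene, for replicate 1 above replicate 2 where both have a peak, and the dark genes are Hoxc13 and Hoxd13.

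Hoxc13, known for its part in hair and nail formation, had a peak just inside its 5′ end and another in its 3′ part in each list. It lies on chromosome 15 from 102921131 to 102928814 (NCBI gene 15422) and is read towards the higher coordinate. The 5′ peak began 86 bp into the gene body in replicate 1 and 181 bp into it in replicate 2, and its summits were 11 bp apart. It was enriched 15.3-fold in replicate 1 (−log10 q 122.1) and 7.57-fold in replicate 2 (−log10 q 8.03). The 3′ peak had its summit 1601 bp before the end of the gene body in replicate 1 and 1607 bp before it in replicate 2. It was enriched 14.2-fold in replicate 1 (−log10 q 120.3) and 6.96-fold in replicate 2 (−log10 q 6.43), where the −log10 q was below the median of its list, 7.54. Replicate 2 held a separate call of 301 bp, enriched 5.12-fold, under the downstream part of the wide 3′ peak of replicate 1. The Hoxc13 peaks were assigned to no second gene of any kind.

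Hoxd13, which shapes the digits and the genital tubercle, showed 2 peaks in each list, again assigned to no second gene. It lies on chromosome 2 from 74668225 to 74671603 (NCBI gene 15433). The 5′ peak spanned 74668277 to 74669008 in replicate 1, where it was enriched 9.87-fold, and 74668413 to 74668953 in replicate 2, where it was enriched 5.91-fold. The second peak was enriched 8.27-fold in replicate 1 and 5.18-fold in replicate 2, and its summits, at 74669948 and 74669949, were 1 bp apart. In replicate 1 the −log10 q was 32.2 and 32.0, near the middle of the list, and in replicate 2 it was 4.88 and 3.41, in its lower part. At a −log10 q of at least 5 Hoxd13 had no replicate 2 peak, and among the 5040 most significant peaks of replicate 1 it had none, so that Hoxc13 alone of the genes described was left in both lists under either setting.

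**Figure D2:**
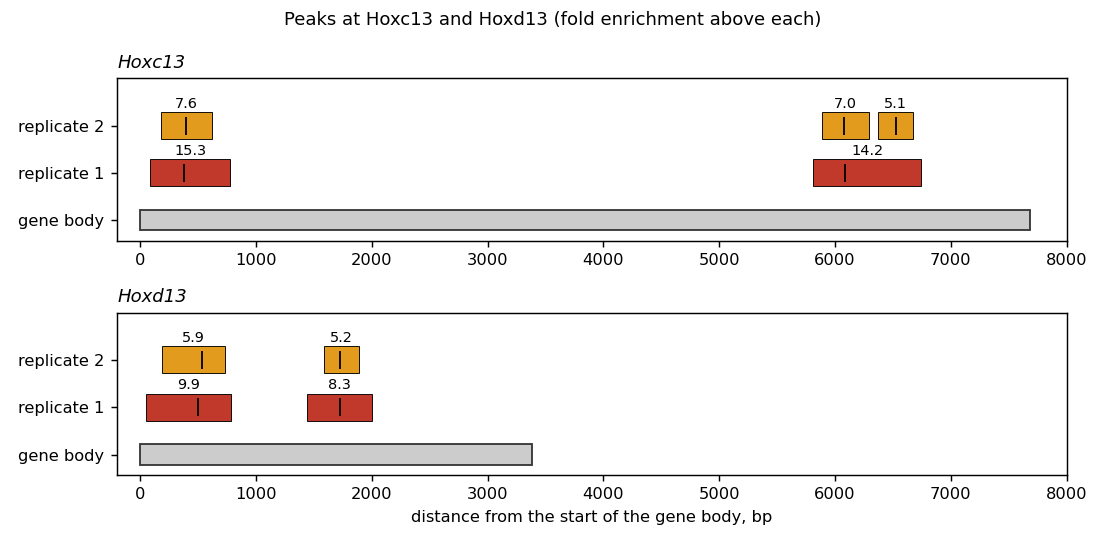
Peaks at Hoxc13 and Hoxd13, with the distance from the start of the gene body in bp on the horizontal axis. Bars are peaks of replicate 1 (red) and replicate 2 (orange), ticks are summits and numbers are fold enrichment, and each of the 5 replicate 2 peaks lies over a replicate 1 peak.

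All 5 replicate 2 peaks at these Hox genes overlapped a replicate 1 peak by at least 1 bp (100%, 95% exact binomial interval 47.8% to 100%, counting error only), against 92.1% of all replicate 2 peaks. Of the 20 distinct replicate 1 peaks at Hox genes, 4 overlapped a replicate 2 peak (20%, interval 5.73% to 43.7%), against 19.1% of all replicate 1 peaks. The intervals treat the peaks as independent, although the 5 replicate 2 peaks lay at only 2 genes. They are not a test of the Hox peaks against all peaks. The median distance between the summits of overlapping peaks was 11 bp at Hox genes (5 pairs, from 1 to 444 bp), against 10 bp over 4684 pairs in all. The 444 bp belong to the second call under the wide Hoxc13 peak.

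The Hox peaks of replicate 1 stood above their list by median fold enrichment and below it by median −log10 q. Their fold enrichment ran from 2.71 to 23.6 with a median of 7.60, against a median of 5.39 for all peaks of that list. Their −log10 q had a median of 18.4, against 28.9 for all peaks. In replicate 2 the 5 Hox peaks had a median fold enrichment of 5.91, against 6.35 for all peaks, and a median −log10 q of 4.88, against 7.54. In replicate 1, then, the Hox peaks had the higher median ratio and the lower median −log10 q. The 4 replicate 1 peaks that overlapped a replicate 2 peak had −log10 q of 122.1 and 120.3 at Hoxc13, and of 32.2 and 32.0 at Hoxd13. The 16 that did not had a median of 11.5, from 2.51 to 76.0, so the ranges overlapped.

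**Figure D3:**
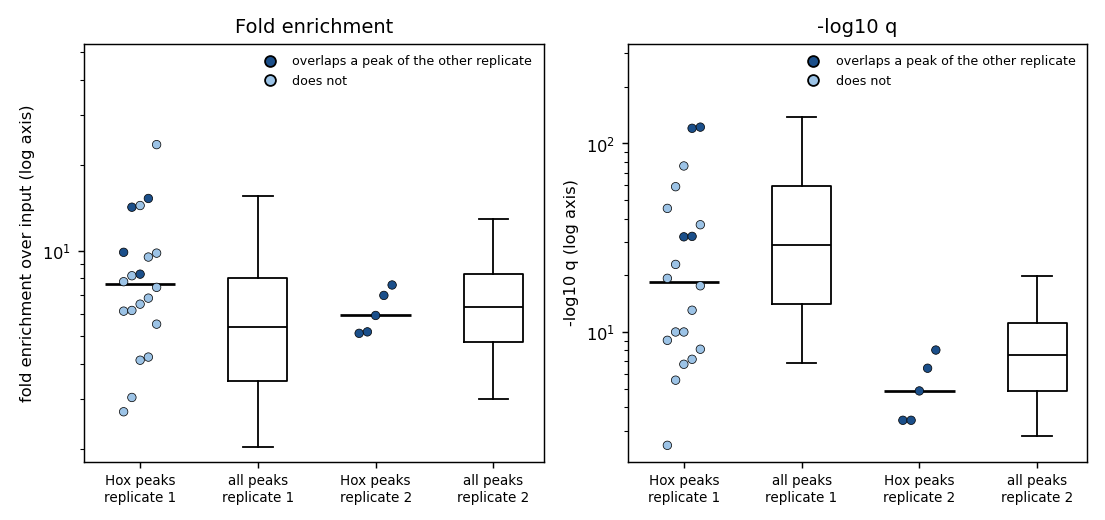
Fold enrichment (left) and −log10 q (right), both on log axes, of the 20 and 5 Hox peaks in replicates 1 and 2, beside all 22531 and 5040 peaks. Points are Hox peaks, dark where they overlap a peak of the other replicate, with a line at the median. Boxes show the quartiles and median of all peaks, with whiskers at percentiles 5 and 95.

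Among the Hox genes with a peak in replicate 1 only, the strongest peak lay at Hoxd4, a gene of the hindbrain and cervical vertebrae, inside the longer annotated body of Hoxd3. It spanned 74728230 to 74728636 on chromosome 2 and was enriched 23.6-fold (−log10 q 76.0), with its summit 696 bp before the end of Hoxd4. This was the highest fold enrichment of the 20 Hox peaks, above 98.8% of its list, yet no replicate 2 peak overlapped it. Of all replicate 1 peaks with at least this −log10 q, 53.6% overlapped a replicate 2 peak. Hoxc4, which also patterns cervical segments, had 2 peaks, enriched 14.4-fold (−log10 q 59.0) and 9.80-fold (−log10 q 37.1). Hoxb13, known from the prostate, had 1, enriched 7.43-fold (−log10 q 45.3). These −log10 q values at Hoxd4, Hoxc4 and Hoxb13 were above the 32.2 and 32.0 of Hoxd13, whose peaks were called again in replicate 2. The body of the non-coding gene Gm30528 overlaps both Hoxc4 peaks. The lists carry no strand, so reads of overlapping genes such as these could not be told apart.

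The remaining genes of replicate 1 had lower −log10 q. Hoxa3, needed for the thymus and other pharyngeal organs, had a peak with its summit 1210 bp before the end of its body, enriched 9.49-fold (−log10 q 19.3). It also took 2 peaks that lie inside its long annotated body, at Hoxa4, enriched 8.16-fold (−log10 q 22.8), and at the start of Hoxa5, a gene of lung and trachea formation, enriched 7.77-fold (−log10 q 13.1). Hoxa6 entered the count only through the Hoxa5 peak, 348 bp beyond its gene body, and was the member nearest to the limit of 500 bp. The first gene outside the limit was Hoxa10, with the nearest peak at 2314 bp. Hoxb9, a gene of the thoracic skeleton, had 2 peaks, enriched 6.12-fold and 2.71-fold, and Hoxd1 had 2, enriched 6.48-fold and 4.22-fold. A single peak lay at Hoxd9 (6.80-fold), at Hoxc10, a gene of lumbar motor neurons and the hindlimb (6.16-fold), at Hoxc12 (5.51-fold), at Hoxd8 (4.12-fold) and at Hoxa11, which acts in the forearm and the uterus (3.04-fold). The peak of Hoxa11 had a −log10 q of 2.51, above that of 0.151% of the list. Of the 17 genes, 12 had a peak at no second Hox gene, and Hoxa4, Hoxa5, Hoxa6, Hoxd3 and Hoxd4 had only peaks shared with another. Of the 20 replicate 1 peaks, 7 also lay within 500 bp of a non-Hox gene, the peaks at Hoxa4, Hoxa5, Hoxa11 and Hoxd8, 1 at Hoxd1 and both at Hoxc4.

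The clusters differed in count, without a test. Of the genes described, 5 of 10 Hoxa genes, 2 of 10 Hoxb genes, 4 of 9 Hoxc genes and 6 of 9 Hoxd genes had a peak in replicate 1, against 41.3% of all protein-coding genes. In both replicates it was 1 Hoxc gene and 1 Hoxd gene, and 0 of the 10 Hoxb genes, against 16.1%. The Hoxb cluster on chromosome 11 spanned 173.9 kb from Hoxb1 to Hoxb13, against 115.7 kb for Hoxc on chromosome 15 and 96.9 kb for Hoxd on chromosome 2. It held 3 distinct replicate 1 peaks at Hox genes, against 4 at the Hoxa genes described, 6 at Hoxc and 7 at Hoxd. In replicate 2 these were 0 peaks at Hoxb, 0 at the Hoxa genes described, 3 at Hoxc and 2 at Hoxd. Its stretch from Hoxb1 to Hoxb8 held no peak at a Hox gene in either list. In that stretch the nearest peak was 3233 bp away at Hoxb8 and 89578 bp away at Hoxb1 in replicate 1. The median fold enrichment of replicate 1 peaks was 12.01 at Hoxc, 7.97 at Hoxa, 6.80 at Hoxd and 6.12 at Hoxb, with ranges that overlapped between all clusters (5.51 to 15.3, 3.04 to 9.49, 4.12 to 23.6 and 2.71 to 7.43).

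**Figure D4:**
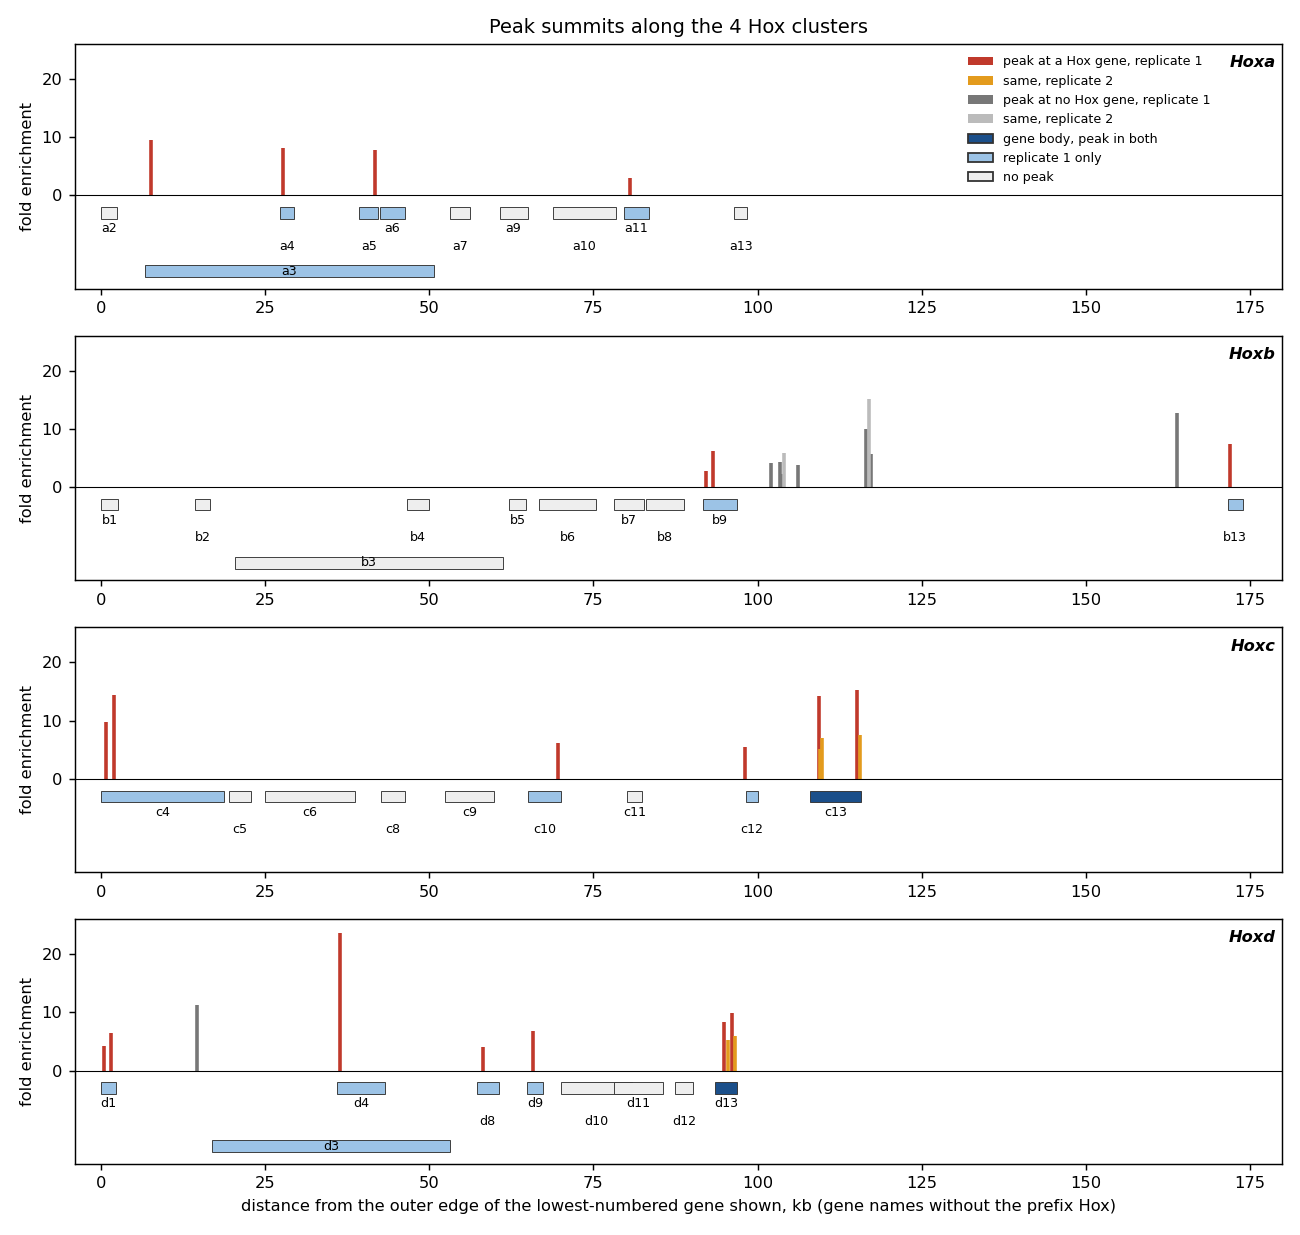
Peak summits along the 4 clusters, with the distance in kb from the outer edge of the lowest-numbered gene shown on the horizontal axis and fold enrichment over input on the vertical axis. Boxes are gene bodies, the long ones (Hoxa3, Hoxb3, Hoxd3) set lower, and bars of replicates 1 and 2 are moved 0.25 kb to either side of the summit so that both can be seen. Red and orange bars stand together over Hoxc13 and Hoxd13, and the long left part of Hoxb is empty.

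Across paralogue groups, 6 of 11 genes described of groups 1 to 4, 3 of 11 of groups 5 to 8 and 8 of 16 of groups 9 to 13 had a peak in replicate 1, against 41.3% of all protein-coding genes. In replicate 2 it was 0 of 11, 0 of 11 and 2 of 16, against 16.9%. Neighbours such as Hoxa3 and Hoxa4 share peaks, and the blocks were not tested against each other. In group 13, Hoxc13 and Hoxd13 were in both lists, Hoxb13 was in replicate 1 only, and Hoxa13 was in neither. In group 1, Hoxd1 was in replicate 1 only and Hoxb1 in neither. In group 4, Hoxa4, Hoxc4 and Hoxd4 had a replicate 1 peak and Hoxb4 had none. No gene of groups 2 and 7 (Hoxa2, Hoxb2, Hoxa7 and Hoxb7) had a peak. The grouping into blocks of numbers was made after these values were seen. The genes with no peak in either list were Hoxa2, Hoxa7, Hoxa9, Hoxa10, Hoxa13, Hoxb1 to Hoxb8, Hoxc5, Hoxc6, Hoxc8, Hoxc9, Hoxc11, Hoxd10, Hoxd11 and Hoxd12. Whether they were expressed in these cells was not measured here.

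Several Hox peaks began shortly after a listed transcription start or the 5′ end of the gene body. Strand and start sites came from RefSeq promoter windows of GRCm38, 250 bases before to 50 after a start, which list 22 of the 38 genes. Other genes were read in the direction that all listed genes of their cluster share, from the 5′ end of the gene body. A peak inside several Hox genes was placed in the shortest. In replicate 1, 6 of the 20 Hox peaks began within 250 bp after a start, those of Hoxd13, Hoxa5, Hoxc4, Hoxc13, Hoxc10 and Hoxd1, at distances of 52 to 213 bp. This limit on where a peak begins was not among the planned measures, which used summits. By summit, the measure used for gene ends below, 6 of the 20 lay within 1000 bp of a start. The listed start of Hoxc4, at 103034395, lies inside its annotated body, which begins at 103018097. Its peak thus began 16381 bp into the gene body. In replicate 2, 2 of 5 Hox peaks began within 250 bp after a start, those of Hoxc13 and Hoxd13, at 181 and 188 bp. Among genes with a listed start, Hoxc4 included, 4 of 12 Hox peaks (33.3%) in replicate 1 began so, against 2.74% of 15505 peaks at all such protein-coding genes. Among gene bodies of at most 10000 bp, a limit set after seeing the data, it was 3 of 9 Hox peaks, against 7.51% of 2462 peaks. In replicate 2 it was 1 of 2 Hox peaks at genes with a listed start, against 2.84% of 3732 peaks, and no test was made. A further 7 replicate 1 summits lay within 1000 bp of the end of the gene body, among them Hoxd4, Hoxb13 and Hoxc12, and 7 lay near neither end. Among genes with a listed start this was 3 of 12 Hox summits, against 13.5% of all such peaks, and for bodies of at most 10000 bp 2 of 9, against 32.1%. In replicate 2, 0 of 5 Hox summits lay within 1000 bp of the end of the gene body, and among genes with a listed start 0 of 2, against 23.2%.

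The start sites that these distances refer to are shown for the 3 genes whose replicate 1 peak began within 50 bp of the promoter window. In each line the first 20 bases, in lower case, precede the listed start, and the 30 in capitals begin at it, from 5′ to 3′. At Hoxc4 the bases in lower case also lie within the annotated gene body. No base of a peak could be read here, since no genome sequence was used.
Hoxd13, chr2:74668205-74668254, plus strand: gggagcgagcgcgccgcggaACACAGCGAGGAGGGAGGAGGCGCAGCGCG
Hoxa5, chr6:52204558-52204607, minus strand: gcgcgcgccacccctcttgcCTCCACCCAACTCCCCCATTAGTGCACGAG
Hoxc4, chr15:103034375-103034424, plus strand: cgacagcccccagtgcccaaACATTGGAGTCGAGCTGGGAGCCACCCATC
The peaks began 52 bp after the listed start at Hoxd13, 77 bp after it at Hoxa5 and 83 bp after it at Hoxc4. None of the 24 promoter windows of these Hox genes overlapped a peak of either list. The share over the promoter windows of all protein-coding genes is not given here, so this count has no background beside it.

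Within the spans of the Hox genes described lie 30 other annotated genes, 23 of them lncRNA genes and 6 miRNA genes. Of these, 11 had a peak in replicate 1, 3 in replicate 2 and the same 3 in both, but 5 of the 11 had only peaks that also lay at a Hox gene. The 3 were Gm53, Gm51876 and Mir196a-1. Gm51876 and Mir196a-1 had the same replicate 2 peak, which lay outside both of their bodies. The share over all genes of these kinds was not computed, so these counts have no background beside them. Peaks at no Hox gene numbered 8 in replicate 1 and 2 in replicate 2 within these spans, 7 of the 8 in the Hoxb cluster. The one with the highest −log10 q in each list lay beside the lncRNA gene Gm53, between Hoxb9 and Hoxb13, on chromosome 11. It spanned 96251168 to 96251633 in replicate 1 and 96251177 to 96251695 in replicate 2. The body of Gm53 begins at 96251660, so both summits, at 96251439 and 96251445, lay outside it. This peak was enriched 9.98-fold in replicate 1 (−log10 q 128.5) and 15.2-fold in replicate 2 (−log10 q 24.4). In replicate 2 this −log10 q was above that of the 5 Hox gene peaks described, of which the highest was 8.03 at Hoxc13. Haglr, a lncRNA gene between Hoxd1 and Hoxd3, had a replicate 1 peak of its own, enriched 11.3-fold, and Hotair, the lncRNA of the Hoxc cluster, had no peak in either list.

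The miRNA genes of the clusters encode the miR-196, miR-10 and miR-615 families, and miR-196 is known to target Hox transcripts such as Hoxb8. Of the 6 miRNA genes, Mir196a-1, between Hoxb9 and Hoxb13, had peaks within 500 bp, 2 in replicate 1 and 1 in replicate 2, and Mir196a-2, Mir196b, Mir10a, Mir10b and Mir615 had none. Their 5p sequences from RefSeq (GRCm38) show what the copies share, with the seed, bases 2 to 8, in capitals.
mmu-miR-196a-5p, from Mir196a-1 in Hoxb and Mir196a-2 in Hoxc: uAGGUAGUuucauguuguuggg
mmu-miR-196b-5p, from Mir196b in Hoxa: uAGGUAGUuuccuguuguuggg
mmu-miR-10a-5p, from Mir10a in Hoxb: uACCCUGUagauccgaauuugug
mmu-miR-10b-5p, from Mir10b in Hoxd: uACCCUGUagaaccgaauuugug
All 3 miR-196 genes thus give 1 seed, and the peaks lay near 1 of them. The peak found in both lists was enriched 4.40-fold in replicate 1 and 5.83-fold in replicate 2. It also lay within 500 bp of Gm53 and Gm51876, and the transcript it belongs to could not be told apart.

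Genes that act with or upon the Hox genes were read in the same way. For comparison with each list that follows, 41.3% of all protein-coding genes had a peak in replicate 1, 16.9% in replicate 2 and 16.1% in both. Of 8 genes of the TALE homeodomain cofactors, which bind DNA together with Hox proteins, 3 had a peak in replicate 1, 2 in replicate 2 and 2 in both (25.0%), Meis1 and Pknox2. The highest peak at Meis1 was enriched 28.0-fold in replicate 1 and 8.92-fold in replicate 2, and the highest at Pknox2 13.5-fold and 4.99-fold. Of 8 ParaHox and even-skipped relatives, 6 had a peak in replicate 1, 3 in replicate 2 and 3 in both, Cdx1, Cdx2 and Gsx1. The Cdx genes encode direct activators of Hox genes. The highest peak at Cdx1 was enriched 9.71-fold in replicate 1 and 10.3-fold in replicate 2, and the highest at Cdx2 8.81-fold and 10.02-fold. Evx1, the neighbour of the Hoxa cluster beyond Hoxa13, had 3 peaks in replicate 1 but none in replicate 2. They were enriched up to 39.8-fold, with −log10 q up to 153.9. Evx2, beside Hoxd13, had no peak in either list.

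Of 12 retinoid and axial regulators, 6 had a peak in replicate 1 and 2 in both, the retinoid X receptors Rxra and Rxrb, and in replicate 2 these 2 alone. The other 4 in replicate 1 were Rara, with 5 peaks (−log10 q up to 74.5), Cyp26b1, Gdf11 and Egr2, and there was no peak at Rarb, Rarg, Rxrg, Aldh1a2, Cyp26a1 or Cyp26c1. Of 14 Polycomb and Trithorax regulators, 11 had a peak in replicate 1, 7 in replicate 2 and 7 in both. The 7 were Ring1, Bmi1, Pcgf2, Kmt2a, Kmt2b, Men1 and Kdm6b. Suz12 (1.44-fold), Cbx2, Cbx7 and Kdm6a had peaks in replicate 1 only, and Ezh2, Eed and Rnf2 had none in either list. Kmt2a, a histone methyltransferase that maintains Hox expression, had 13 peaks in replicate 1, enriched up to 9.90-fold, and 2 in replicate 2, enriched up to 11.0-fold. The shares in both replicates were thus 5.26% for the Hox genes described, 25.0%, 37.5%, 16.7% and 50.0% for these lists in the order given, and 16.1% for all protein-coding genes. The lists are small and the differences were not tested.

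**Figure D5:**
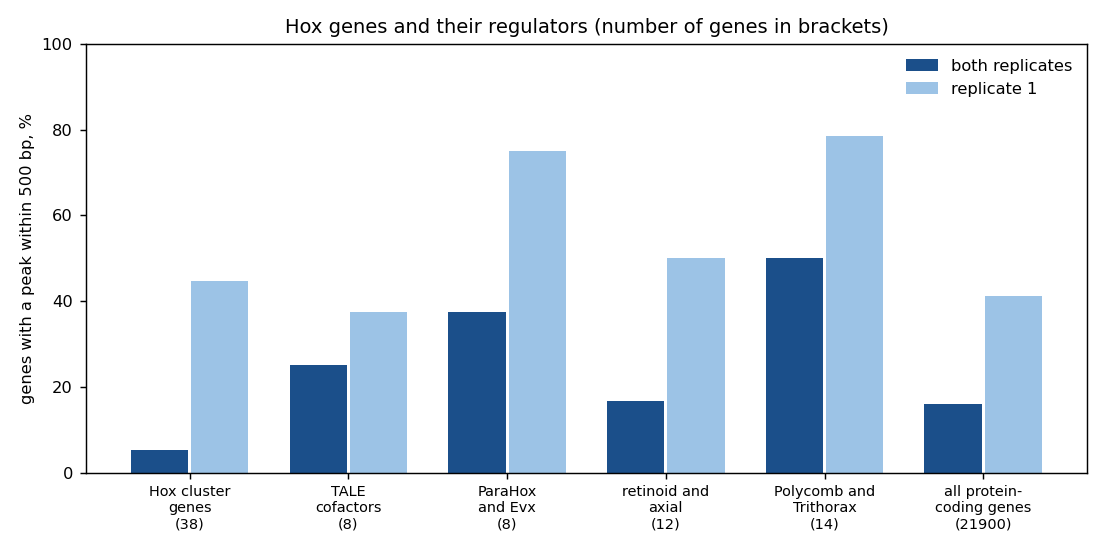
Percent of genes with a peak within 500 bp in both replicates (dark) and in replicate 1 (light), for the Hox genes, 4 lists of related genes and all protein-coding genes, with the number of genes in brackets. The Hox genes described stand at 5.26% in both replicates and 44.7% in replicate 1, against 16.1% and 41.3% of all protein-coding genes.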

How the data were processed

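Peak lists of the 2 wild-type m6A immunoprecipitations were used. Bowtie, SAMtools, MACS2 and mm10 are named in the submitters' processing notes, without versions. The authors called peaks with MACS2 and its defaults, each immunoprecipitation set against an input and kept separate. The deposited fold enrichment is a ratio over input, and the deposited −log10 values are of p- and q-values. The deposited score repeats the −log10 q and was not used. The sources used here do not give which input served which replicate, nor whether the samples came from separate cultures. Without read counts, depth is unknown, and intervals cover counting error only.

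Peaks were assigned to every RefSeq gene (GRCm38.p6) within 500 bp of the gene body, as in the study, and coordinates are printed from 1. Peaks were shared at an overlap of at least 1 bp. The Hox genes are named, and other genes come from lists of cofactors, relatives and regulators. A Hox gene that meets the rule, a cofactor gene and an axial regulator gene are not reported here, and every count over Hox genes or these lists leaves them out, so that these counts and shares do not describe the complete family or lists. The members and lists were chosen with earlier results of these data known. No test was run: counts are given beside those of all protein-coding genes. The overlap functions were tested on simulated data. Exons were not used. Values were computed in Python 3.11.15 with pandas 2.3.3 and numpy 2.4.6, intervals with scipy 1.17.1, and figures with matplotlib 3.10.9.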

Additional observations from a re-analysis of the deposited data

How the results depend on the processing

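Among the Hox genes described, the count of 2 with a peak in both replicates stayed at 2 with distances of 0 and 2000 bp, the nearest gene only, summits inside the gene body, overlapping peaks only, and peaks enriched 4-fold or more. It was 1, without Hoxd13, when peaks needed a −log10 q of 5, and also when replicate 1 was shortened to the length of replicate 2 by −log10 q. With replicate 2 alone it was 2, and with replicate 1 alone, which lists more peaks, it was 17. What set these counts apart was not tested. Of 32 counts by cluster under the 8 settings that use both replicates, 2 changed, both at Hoxd, to 0. The counts of 0 at Hoxa and Hoxb could not change under these settings. No replicate 2 peak lay within 4003 bp of a Hox gene described that had none in the main setting, and the widest distance was 2000 bp. With replicate 1 alone the counts were 5 at Hoxa, 2 at Hoxb, 4 at Hoxc and 6 at Hoxd. The shortened list, which keeps only peaks with a −log10 q of about 64.3 or more, left 3 Hox peaks in replicate 1 with a median fold enrichment of 15.3, and 60.0% of the replicate 2 Hox peaks overlapped one of its peaks. Requiring an overlap of 50% of each peak also gave 60.0%. With a −log10 q of 5 or more, 2 Hox peaks were left in replicate 2, with a median fold enrichment of 7.26. These settings shorten a list or make the overlap stricter. No paired analysis was possible because the result comes from no test and 1 group was analysed. With unknown depth, a gene without a peak cannot be told from one with too few reads.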
